A study of Homo sapiens with 20 samples.

Results

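RUNX1 occupancy was examined at MYB and at 9 regulators of the early cell cycle (CDK6, CDK4, CCND1, CCND2, CCND3, CDKN1A, CDKN1B, CDKN2C and E2F3) by taking every RUNX1 peak within 50 kb of the span of a gene in the RefSeq annotation of GRCh38.p14, or within 150 kb for MYB. All 10 spans were found, and 43 of the 26642 peaks of the series lay in these windows: 12 around MYB, 6 around CDK6, 5 around CDK4, 2 around CCND2, 11 around CCND3, 4 around CDKN1A, 2 around CDKN1B and 1 at CDKN2C. No peak lay within 50 kb of CCND1 or E2F3. The rule used position alone, and each of the 43 peaks was tested.

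The libraries came from THP-1, a human line established from an acute monocytic leukemia, in which doxycycline switched on an shRNA that targets PU.1 in the knockdown group and a scramble shRNA in the control group. Both arms received doxycycline, each arm rests on 1 shRNA in 1 cell line, and ChIP-seq with an antibody against RUNX1 was carried out in experimental rounds that the labels call batches. Each group had n = 6 libraries: 3 controls and 2 knockdowns were made in batch 1, and the remaining 3 controls and 4 knockdowns in batch 2. The libraries of a group are, per the study, independent immunoprecipitations of the same line, so p-values measure the spread between such preparations. The level of PU.1 itself is not read by this assay, and fewer cells with RUNX1 at a site cannot be told apart from less RUNX1 per cell.

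MYB encodes a transcription factor that keeps hematopoietic progenitors immature and dividing, and distant enhancers between HBS1L and MYB are known to drive it in blood cells. The kinases CDK4 and CDK6 pair with the D-type cyclins CCND1, CCND2 and CCND3 to phosphorylate the retinoblastoma protein. This frees E2F factors such as E2F3 to start DNA replication. CDKN1A, CDKN1B and CDKN2C encode inhibitors of cyclin-dependent kinases. RUNX1 and PU.1 are partner transcription factors of the myeloid lineage, and the comparison asks how RUNX1 occupies these loci once PU.1 is lowered.

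The promoter sequences of 4 genes show what lay under or beside the peaks at the genes themselves: the 250 bases before the start of MYB, over which no peak was found, before the start of CDK4 and the first start of CDKN2C, both inside a peak, and before the internal start of CCND3 that lay inside the strongest of the 43 peaks. Letters are lower case, and capitals mark the core of the PU.1 motif, GAGGAA, or its reverse complement. The sequences are from RefSeq (GRCh38.p14), 5′ to 3′ on the strand of the gene, at chr6:135181058-135181307 (plus strand, MYB), chr12:57752311-57752560 (minus strand, CDK4), chr1:50960495-50960744 (plus strand, CDKN2C) and chr6:41939206-41939455 (minus strand, CCND3).
MYB: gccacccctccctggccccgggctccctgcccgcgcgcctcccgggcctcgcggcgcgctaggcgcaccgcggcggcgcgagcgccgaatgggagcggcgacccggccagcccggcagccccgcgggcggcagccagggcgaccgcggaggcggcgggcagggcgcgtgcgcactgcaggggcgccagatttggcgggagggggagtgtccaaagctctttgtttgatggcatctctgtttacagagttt
CDK4: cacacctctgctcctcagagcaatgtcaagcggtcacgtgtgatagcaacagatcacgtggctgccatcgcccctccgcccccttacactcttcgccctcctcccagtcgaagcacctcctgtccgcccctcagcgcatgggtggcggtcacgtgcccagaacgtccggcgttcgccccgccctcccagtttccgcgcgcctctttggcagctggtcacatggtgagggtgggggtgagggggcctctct
CDKN2C: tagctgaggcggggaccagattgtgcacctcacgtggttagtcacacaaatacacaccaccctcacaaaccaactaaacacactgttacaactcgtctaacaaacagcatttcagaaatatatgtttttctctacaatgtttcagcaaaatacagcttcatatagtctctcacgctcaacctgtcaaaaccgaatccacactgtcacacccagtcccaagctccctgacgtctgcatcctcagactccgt
CCND3 internal start: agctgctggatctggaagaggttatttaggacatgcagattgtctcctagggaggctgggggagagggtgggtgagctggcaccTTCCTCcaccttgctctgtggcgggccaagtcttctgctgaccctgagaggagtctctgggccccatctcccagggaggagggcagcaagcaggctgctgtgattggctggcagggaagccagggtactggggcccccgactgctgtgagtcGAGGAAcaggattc
The CCND3 stretch held 2 matches to the PU.1 core, one on each strand, and the other 3 stretches held none. The PU.1 core is shared with other ETS factors, and the RUNX cores searched were TGTGGT and TGCGGT. Over windows from 250 bases before to 50 bases after a start, both strands read, the RefSeq table held 14 windows for 8 of the 10 genes. CCND1 and CCND2 were not matched. None of the 14 windows held a RUNX core and 4 held the PU.1 core, where 19.6% and 27.9% of all 35116 promoters did. The 4 were those of the printed CCND3 start, the MYB start, the first start of CDKN2C and the later start of E2F3. At MYB and CDKN2C the match was not within the printed 250 bases. Peaks overlapped 4 of the 14 windows, 1 at CDK4, 1 at CDKN2C and 2 at CCND3.

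A peak was called gained or lost in the knockdown at a DESeq2 adjusted p below 0.05 and a fitted fold change above 1.1, with batch as a covariate and adjustment over all 26642 peaks. Across all peaks 42.0% were called, 21.3% gained and 20.7% lost. Of the 43 peaks, 16 were called (37.2%), 6 gained (13.95%) and 10 lost (23.3%), so the share of calls stood near the background. The called peaks were spread over 6 genes: 2 gained and 5 lost around MYB, 1 lost at CDK6, 1 lost near CDK4, 2 gained and 1 lost around CCND3, 1 gained and 2 lost around CDKN1A, and 1 gained near CDKN1B. The median log2 fold change (knockdown over control) was -0.02 for the 43 peaks and -0.02 for all peaks. A 2-fold change was passed by 3 called peaks, and the share of all peaks that did so is not given here. The 43 peaks were wider than the peaks of the series (median 1111 against 889 bp) and had a higher mean level (median 42.3 against 31.2 normalised counts, which are counts divided by DESeq2 size factors).

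**Figure D1:**
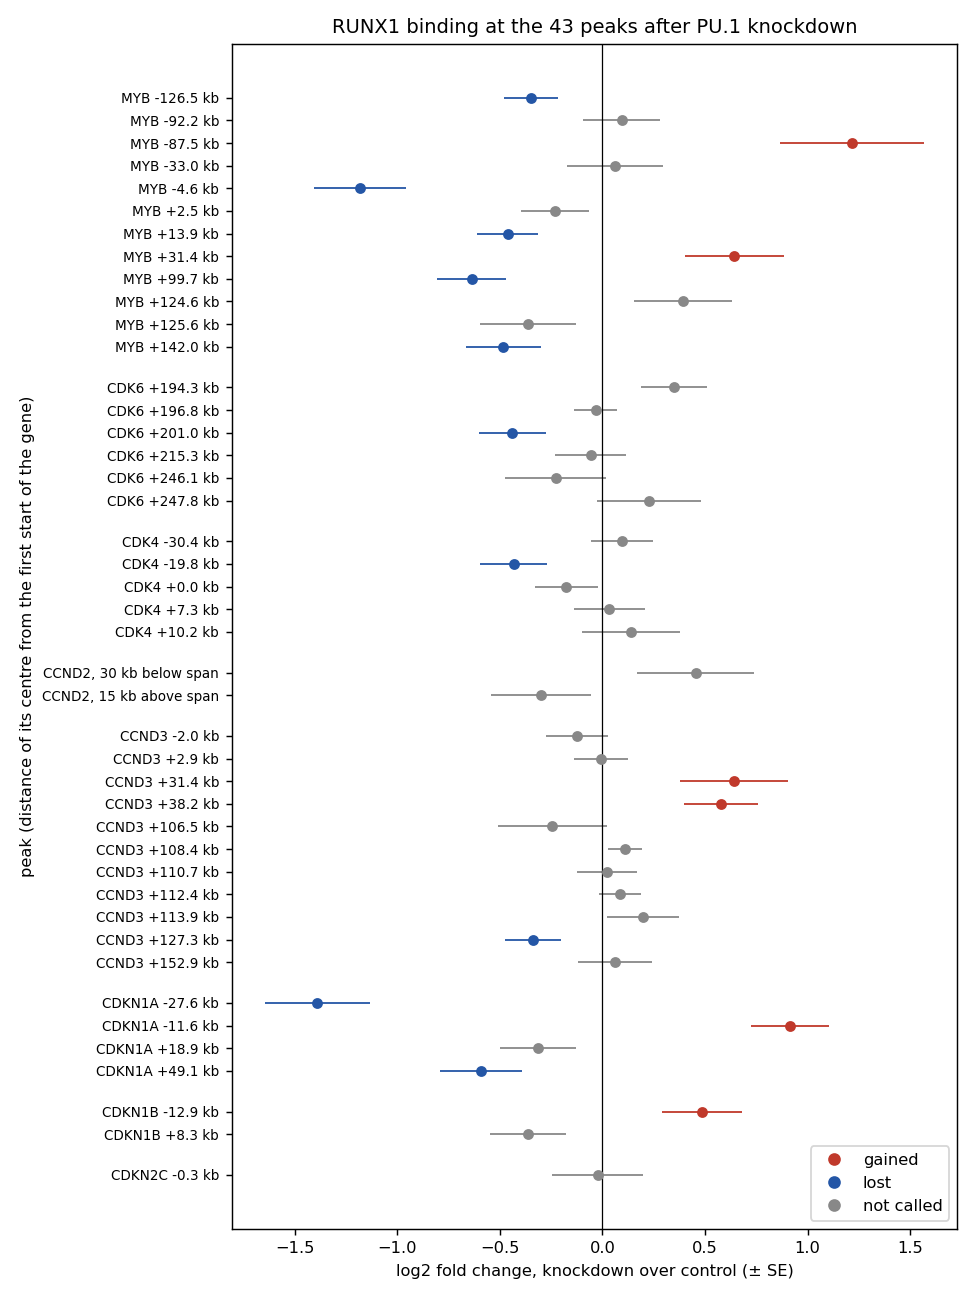
Log2 fold change of RUNX1 occupancy (knockdown over control, ± SE, n = 6 libraries per group) at each of the 43 peaks, grouped by gene and ordered by the distance of the peak's centre from the first RefSeq start of the gene, or from the span for CCND2. Red points are the 6 gained peaks and blue points the 10 lost ones, and the points farthest from 0 belong to MYB and CDKN1A.

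Between 630247 and 1199004 reads fell into all peaks in control libraries and between 938745 and 1719840 in knockdown libraries. Within the 43 peaks these were 1270 to 2377 and 1849 to 3280 reads, so a single weak peak rested on as few as 4 reads in a library. Control replicate 1 stood apart at gene starts: it was the highest control library in 48.4% of all peaks that covered a RefSeq start and in 13.5% of the others, and in 11 of 15 and 9 of 28 of the peaks described here. Without it 14 of the 43 peaks were called, 6 gained and 8 lost. The calls lost without it, next to CCND3 and CDK4, are named with those genes.

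The MYB window held 7 calls, with losses from the HBS1L start to AHI1 and gains at weak peaks. Peaks are named here by the distance of their centre, in kb, from the RefSeq start of the gene, negative values lying upstream. The peak nearest the gene in the upstream interval, at -4.6 kb (chr6:135176223-135177115), overlapped no gene. Its normalised count was 33.5 at the lowest, 43.9 at the median and 52.0 at the highest of the control libraries, against 13.1, 17.2 and 36.3 in the knockdown. In 5 of 6 knockdown libraries it lay below every control library, and replicate 6 of the knockdown, at 36.3, overlapped the control range. The mean fell from 43.4 ± 7.59 (SD, n = 6) to 20.01 ± 8.81, a log2 fold change of -1.18 ± 0.22 (SE) with an adjusted p of 1.22e-06. It was called in batch 1 (-1.52 ± 0.43, adjusted p = 0.0077) and in batch 2 (-0.97 ± 0.30, adjusted p = 0.00831).

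Farther upstream, between HBS1L and MYB, the narrowest of the 43 peaks, 462 bp at -87.5 kb (chr6:135093569-135094030), was gained. It ranged from 5.20 to 11.2 with a median of 6.62 in control libraries and from 8.39 to 23.8 with a median of 17.3 in the knockdown. In 5 of 6 knockdown libraries it exceeded every control library. Its mean went from 7.64 ± 2.51 to 17.2 ± 6.07 (log2 fold change 1.22 ± 0.35, adjusted p = 0.00207), resting on 4 to 36 reads per library, and it passed the threshold in neither batch alone. Its neighbours at -92.2 and -33.0 kb did not pass the test (log2 fold changes 0.10 ± 0.19 and 0.06 ± 0.23). The strongest peak of the window lay at -126.5 kb over the start of HBS1L, which encodes a translation-related GTPase, at chr6:135054085-135055556. It read 74.1 at the lowest, 85.3 at the median and 89.1 at the highest in control libraries and 58.8, 65.6 and 75.1 in the knockdown. Only the highest knockdown library reached into the control range. The mean fell from 83.9 ± 5.55 to 66.2 ± 6.27 (-0.35 ± 0.13, adjusted p = 0.0227), a call that was lost without control replicates 5 or 6 or knockdown replicates 1, 4 or 5 (adjusted p up to 0.0762).

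Within MYB, neighbouring peaks went in different directions. The peak nearest the start, at 2.5 kb (chr6:135183161-135184483), did not cover it and did not pass the test: control libraries ranged from 42.8 to 59.9 (median 58.1) and knockdown libraries from 34.2 to 55.9 (median 49.3), with a log2 fold change of -0.23 ± 0.16 (adjusted p = 0.258). The peak at 13.9 kb (chr6:135194320-135196100) was lost, from a range of 63.7 to 98.5 (median 81.8) to one of 42.8 to 81.1 (median 59.4). Its groups overlapped, with 4 of 6 knockdown libraries below every control, and the log2 fold change was -0.46 ± 0.15 (adjusted p = 0.00679, or 0.0679 without knockdown replicate 2). The peak at 31.4 kb (chr6:135212351-135212998), near the end of the gene, was gained, from 9.31 to 28.4 (median 16.3) to 19.2 to 39.2 (median 29.4). Here 4 of 6 knockdown libraries lay above every control (0.64 ± 0.24, adjusted p = 0.0205), and the call was lost without control replicate 2, control replicate 5 or knockdown replicate 2. The gain and the loss lay in the same gene.

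Downstream of MYB, the peak at 99.7 kb (chr6:135280412-135281522), in the interval before AHI1, was lost. It read 45.6, 61.1 and 99.7 (lowest, median and highest) in control libraries and 33.8, 44.9 and 53.5 in the knockdown, and 4 of 6 knockdown libraries were below every control. The mean fell from 67.4 ± 18.9 to 44.5 ± 7.10 (-0.64 ± 0.17, adjusted p = 0.000771), and it was called in batch 2 (-0.81 ± 0.22, adjusted p = 0.00206) and not in batch 1 (-0.38 ± 0.33, adjusted p = 0.527). AHI1, a gene of the primary cilium, held 3 peaks of the window. The one at 142.0 kb (chr6:135322869-135323721) covered the start of LOC124901407 and was lost. It went from a range of 31.2 to 56.5 (median 52.7) to one of 28.4 to 45.7 (median 35.0). The log2 fold change was -0.48 ± 0.18 (adjusted p = 0.0224). The lowest control was replicate 1, and without it the log2 fold change was -0.59 (adjusted p = 0.00354), while the call was lost without control replicates 4, 5 or 6 or knockdown replicates 4 or 5. The peaks at 124.6 and 125.6 kb did not pass the test and had log2 fold changes of 0.39 ± 0.24 and -0.36 ± 0.23.

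Summed over the 12 peaks, the MYB window held a mean of 516 normalised counts in control libraries (433 to 598, SD 57.2, n = 6) and of 439 in the knockdown (406 to 471, n = 6), a ratio of 0.851. The other peaks within 5 Mb on either side of it had a median log2 fold change of -0.12 (132 peaks), against -0.02 for all peaks. After each peak was centred on the median of its neighbours, the losses at -4.6 and 99.7 kb (adjusted p = 1.56e-05 and 0.00775) and the gains at -87.5 and 31.4 kb (0.000639 and 0.00504) were still called, and those at -126.5, 13.9 and 142.0 kb were not (0.161, 0.0547 and 0.0996). Over the 43 peaks centring turned 6 gained and 10 lost into 7 gained and 5 lost.

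**Figure D2:**
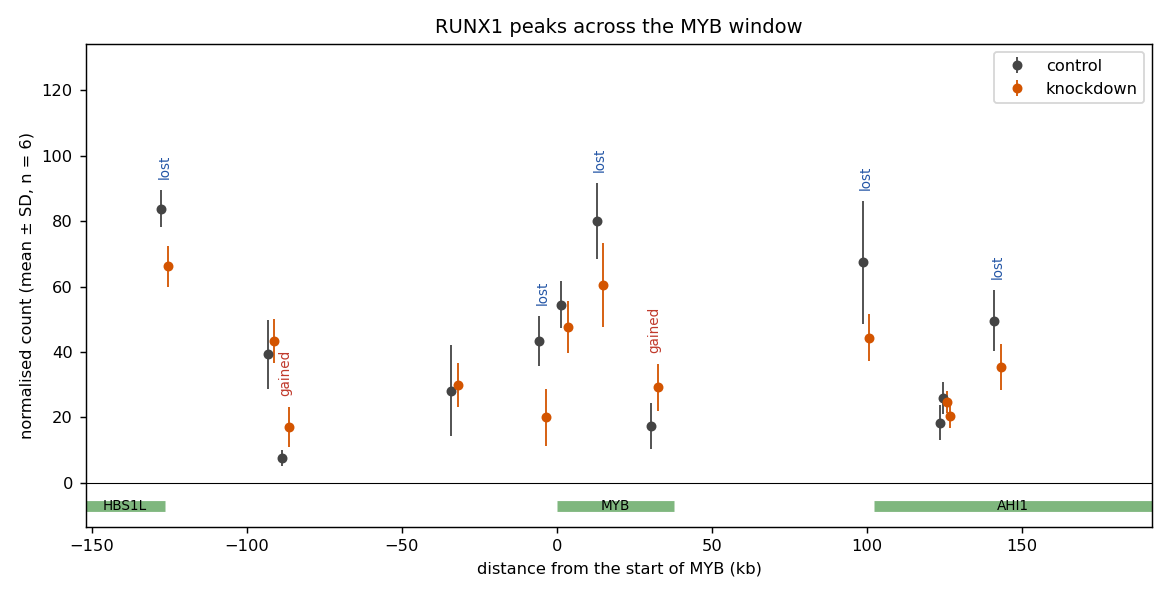
Mean normalised count (± SD, n = 6 libraries) of the 12 peaks of the MYB window in control (grey) and knockdown (orange) libraries, by distance from the MYB start in kb, with gene spans as green bars. The 5 lost peaks are spread from the HBS1L start to AHI1, and the 2 gained peaks start from lower levels, 7.64 and 17.4 in the control.

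At CDK6, the kinase partner of D-type cyclins that is prominent in blood cells, RUNX1 was found at the far end of the gene, in 4 peaks inside it and 2 beyond it, 194.3 to 247.8 kb from the first start. The strongest of them, at 196.8 kb (chr7:92639193-92640366), had 110 normalised counts per kb of peak, the highest density of the 43, and differed little between groups. It ranged from 113 to 149 (median 129) in control libraries and from 112 to 147 (median 129) in the knockdown, with a log2 fold change of -0.03 ± 0.11 (adjusted p = 0.832). Farther into the gene, the peak at 201.0 kb (chr7:92634779-92636361) was lost. It read 46.8, 53.7 and 64.2 (lowest, median and highest) in control and 36.3, 40.3 and 48.4 in knockdown libraries, with 5 of 6 knockdown libraries below every control. The mean fell from 54.1 ± 6.94 to 40.5 ± 4.32 (-0.44 ± 0.16, adjusted p = 0.0198), a call that was lost without control replicate 6, knockdown replicate 2 or knockdown replicate 5 and after centring on its neighbours (adjusted p = 0.106). On the other side of the strongest peak, the one at 194.3 kb (chr7:92641712-92642894) ranged from 36.4 to 55.8 (median 49.98) in control and from 46.3 to 74.55 (median 59.4) in knockdown libraries. Although 5 of 6 knockdown libraries were above every control, it missed the threshold with DESeq2 (0.35 ± 0.16, adjusted p = 0.0678) and passed it with edgeR (adjusted p = 0.0333). It was the only peak that edgeR added, edgeR calling 17 of the 43 (7 gained, 10 lost) and 47.1% of all peaks. It was also called gained after centring on its neighbours (adjusted p = 0.011). With DESeq2 it was called gained with at least 10 counts in every library and without knockdown replicate 3. The remaining peaks had log2 fold changes from -0.23 to 0.23.

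CDK4, which encodes the other kinase of the pair, is short and lies among close neighbours, and 1 of the 5 peaks of its window was called. The peak over its own start (chr12:57751672-57752944), under which the printed promoter lies, ranged from 47.2 to 81.9 (median 62.3) in control and from 47.5 to 58.8 (median 53.6) in knockdown libraries. The knockdown values fell within the control range, and the log2 fold change was -0.18 ± 0.16 (adjusted p = 0.378). Lost was the peak at -19.8 kb over METTL1, a transfer RNA methyltransferase, and EEF1AKMT3 (chr12:57771121-57773158), with 54.2 to 81.9 (median 66.4) in control and 37.4 to 64.3 (median 48.4) in knockdown libraries. Of the knockdown libraries 4 of 6 were below every control (-0.43 ± 0.16, adjusted p = 0.0222). Control replicate 1 was the highest library there, and without it the adjusted p was 0.063, with the call also lost without control replicate 5 or knockdown replicates 1, 3 or 5. The peaks over the starts of AGAP2, TSPAN31 and TSFM did not pass the test, with log2 fold changes from 0.03 to 0.14.

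The D-type cyclin genes differed in the number of RUNX1 peaks in their windows. They also differ in span, which is 115103 bp for CCND3, 31592 bp for CCND2 and 13319 bp for CCND1. CCND3, a D-type cyclin used by blood cells, had 11 peaks, CCND2 had 2 outside its span, and CCND1, a frequent target of amplification in solid tumours, had none within 50 kb. The nearest peak to CCND1 lay 134557 bp away and was gained (0.47, adjusted p = 0.033). The strongest of the 43 peaks covered an internal start of CCND3 (chr6:41938988-41941568, 2581 bp) and stood at the 99.7th percentile of all peaks by mean level. It read 197, 215 and 244 (lowest, median and highest) in control and 221, 232 and 250 in knockdown libraries. Over both batches the groups overlapped, while within each batch every knockdown library lay above every control library. The log2 fold change was 0.11 ± 0.08 (adjusted p = 0.29), and the peak was called in neither batch alone. With the widest span of reads per library of the 43 peaks, 125 to 372, it also had the smallest error. It lay in a row of 5 peaks, between 106.5 and 113.9 kb from the first start, none of which passed the test. After centring on its neighbours, the strongest peak was called gained (0.20, adjusted p = 0.0398). Among them, the peak at 112.4 kb (chr6:41935598-41936895) had a mean of 133 ± 13.1 in control and 141 ± 12.8 in knockdown libraries, the 97.9th percentile.

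The gains at CCND3 lay inside the gene, away from this row. At 38.2 kb (chr6:42010064-42010899) the peak covered the start of LOC105375059. Control libraries read 25.3, 33.4 and 41.9 (lowest, median and highest) there and knockdown libraries 39.6, 47.4 and 59.6. In 5 of 6 knockdown libraries the peak exceeded every control, the log2 fold change was 0.58 ± 0.18 (adjusted p = 0.00509), and the call remained when any single library was left out. At 31.4 kb (chr6:42016998-42017622) the values were 11.5, 16.1 and 20.8 in control and 14.3, 25.7 and 30.9 in knockdown libraries. Again 5 of 6 knockdown libraries were above every control (0.64 ± 0.26, adjusted p = 0.0375), but the call was lost without control replicates 2, 3 or 5 or knockdown replicates 2, 4, 5 or 6, with adjusted p up to 0.186. The loss lay outside the gene, at the starts of BYSL, a ribosome assembly factor, and MED20, a Mediator subunit (chr6:41920396-41922285). Control libraries ranged there from 76.3 to 107 (median 96.15) and knockdown libraries from 62.1 to 92.6 (median 69.8), with a log2 fold change of -0.34 ± 0.14 (adjusted p = 0.0316). Without control replicate 1 the adjusted p was 0.0696, and the call was also lost without control replicates 3, 4 or 6 or knockdown replicates 1, 4, 5 or 6 and after centring on its neighbours (adjusted p = 0.127).

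At CCND2 neither peak passed the test. The one over the start of TIGAR, a regulator of glycolysis (chr12:4320568-4321644), ranged from 17.9 to 53.3 (median 24.4) in control and from 13.0 to 29.0 (median 19.8) in knockdown libraries, with a log2 fold change of -0.30 ± 0.25 (adjusted p = 0.338). The highest control was replicate 1, and without it the log2 fold change was -0.11. The other peak, 30.2 kb from the span, had a log2 fold change of 0.45 ± 0.29. Just outside the window, 57935 bp from the span, occupancy fell from a mean of 36.1 to 15.7 (-1.21, adjusted p = 6.04e-07).

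CDKN1A, the gene of p21, which halts the cycle after DNA damage and during differentiation, had the clearest separation of the groups: 3 of its 4 peaks were called, and in each of the 3 all 6 knockdown libraries lay beyond all 6 control libraries. No other peak of the 43 was separated in this way, which makes 3 of 43 (6.98%) against 23.3% of all peaks. Farthest upstream, at -27.6 kb (chr6:36650733-36651436), the peak read 25.8, 32.1 and 38.0 (lowest, median and highest) in control and 4.75, 12.7 and 17.7 in knockdown libraries. The mean fell from 31.7 ± 5.34 to 11.7 ± 4.53, a log2 fold change of -1.39 ± 0.26 (adjusted p = 5.84e-07) and the lowest of the 43. At -11.6 kb (chr6:36666740-36667566), closer to the gene, the peak was gained. It read 20.7, 28.8 and 39.0 in control and 39.6, 48.2 and 77.6 in knockdown libraries, so that the groups were separate but nearly touched. The mean rose from 29.3 ± 6.86 to 53.0 ± 13.7 (0.92 ± 0.19, adjusted p = 1.18e-05). Each of these peaks was called in both batches: the loss at -1.32 ± 0.45 (adjusted p = 0.0363) and -1.44 ± 0.39 (adjusted p = 0.00171), the gain at 1.14 ± 0.35 (adjusted p = 0.0164) and 0.73 ± 0.28 (adjusted p = 0.0357), in batches 1 and 2.

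Downstream of CDKN1A, the peak at 49.1 kb in RAB44, a gene of the Rab family (chr6:36727418-36728301), was lost. It ranged from 30.0 to 40.9 (median 35.6) in control and from 21.7 to 28.0 (median 23.4) in knockdown libraries. The mean fell from 35.9 ± 4.25 to 24.2 ± 2.77 (-0.59 ± 0.20, adjusted p = 0.0103), and the call remained without any single library. The peak at 18.9 kb had a log2 fold change of -0.31 ± 0.18 (adjusted p = 0.162). No peak covered the CDKN1A start, the nearest being the gained one. The only RefSeq start listed for CDKN1A, from which these distances were taken, lies inside the span of the gene. From the span itself the gained peak lay 8.9 kb away.

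**Figure D3:**
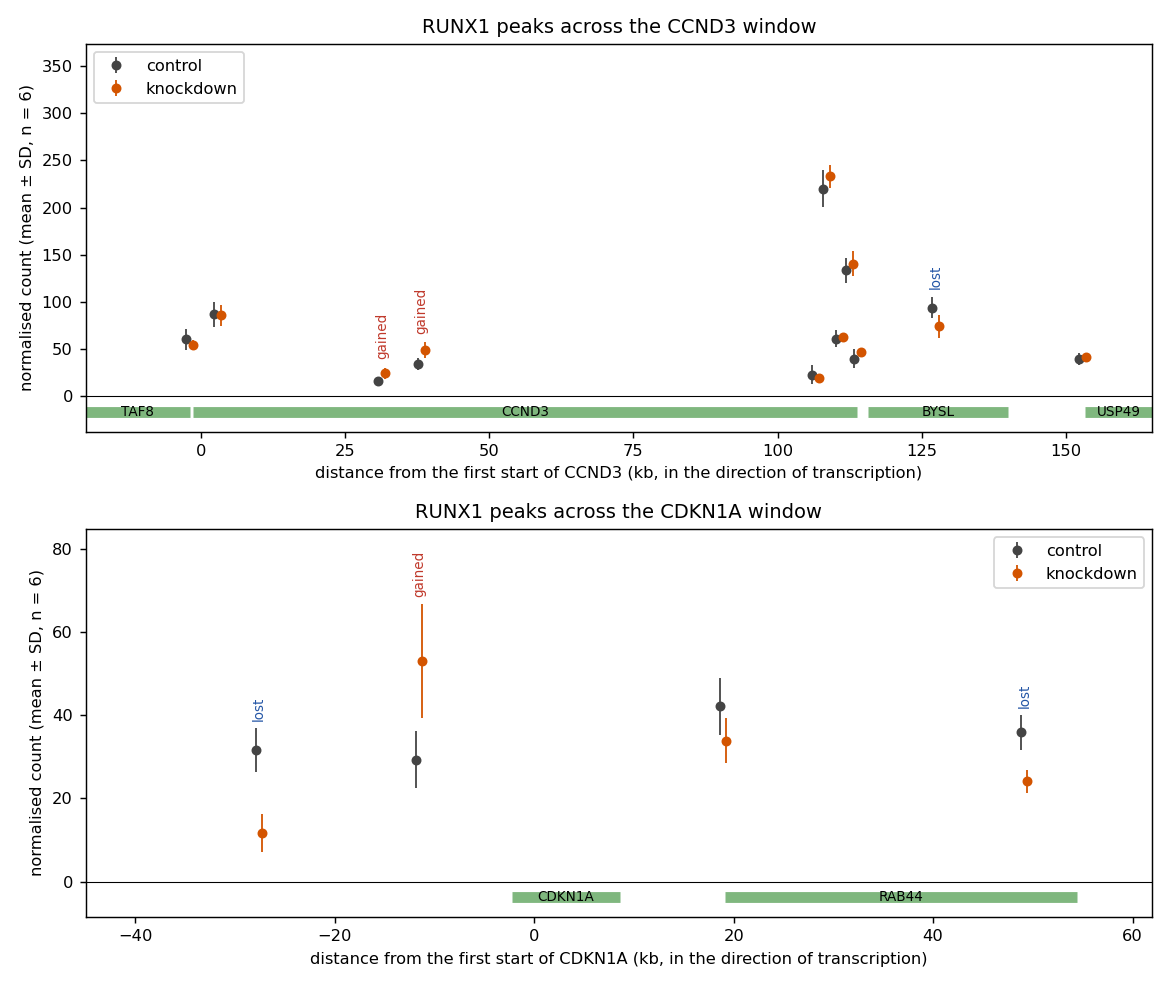
Mean normalised count (± SD, n = 6 libraries) of the 11 peaks of the CCND3 window and the 4 peaks of the CDKN1A window in control (grey) and knockdown (orange) libraries, by distance in kb from the first RefSeq start in the direction of transcription, with gene spans as green bars. The strong CCND3 peaks between 106.5 and 113.9 kb differ little between groups, and at CDKN1A the called peaks alternate between loss, gain and loss.

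CDKN1B, the gene of p27, a brake on the cycle in resting cells, had 2 peaks, both over neighbouring genes. At -12.9 kb in GPR19, an orphan receptor gene (chr12:12703903-12705132), the peak was gained over all libraries (0.49 ± 0.20, adjusted p = 0.0336), but the batches differed. In batch 1 the control libraries read 37.7, 49.3 and 48.4 and the knockdown libraries 44.7 and 39.5, with a log2 fold change of -0.10 ± 0.34 (adjusted p = 0.908). In batch 2 the control libraries read 33.0, 24.6 and 22.1 and the knockdown libraries 51.1, 48.9, 52.9 and 55.9, and the log2 fold change was 1.01 ± 0.27 (adjusted p = 0.0018). The test of this difference gave an unadjusted DESeq2 p of 0.00296 and an adjusted p of 1.0 over all peaks. It was the only peak of the 43 with an unadjusted p below 0.05 (2.33%), where 2.51% of all peaks had one. The call was lost without any single library of batch 2, without batch in the model and after centring on its neighbours (adjusted p = 0.0639). The peak at 8.3 kb over the start of APOLD1 (chr12:12724688-12726573) ranged from 47.2 to 93.6 (median 65.5) in control and from 40.4 to 80.4 (median 43.2) in knockdown libraries (-0.36 ± 0.19, adjusted p = 0.104). It was called lost in batch 2 alone (-0.57 ± 0.22, adjusted p = 0.0414) and not in batch 1 (-0.07 ± 0.34, adjusted p = 0.939). With both batches it was called lost once control replicate 3 or knockdown replicate 1 was left out.

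CDKN2C, the gene of p18, an inhibitor of CDK4 and CDK6, had 1 peak, over its first start and a start of FAF1 (chr1:50959984-50961001). It read 28.1, 35.5 and 59.8 (lowest, median and highest) in control and 23.1, 39.3 and 49.3 in knockdown libraries, with a log2 fold change of -0.02 ± 0.22 (adjusted p = 0.946). E2F3, an activator of the genes of DNA replication, had its nearest peak just outside the window, 54345 bp away, with means of 21.8 and 15.8 (-0.56, adjusted p = 0.0715). The nearest peaks outside the CDK4 and CDKN1A windows, 53147 and 52147 bp away, had log2 fold changes of -0.27 and -0.13 and were not called. Those of CCND3 and CDKN2C, 98390 and 193583 bp away, were gained (0.84 and 0.66, adjusted p = 0.00786 and 0.0179), and those of MYB, CDK6 and CDKN1B, 219662, 67690 and 90681 bp away, were not called (-0.02, 0.27 and -0.62, adjusted p = 0.961, 0.446 and 0.0523).

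**Figure D4:**
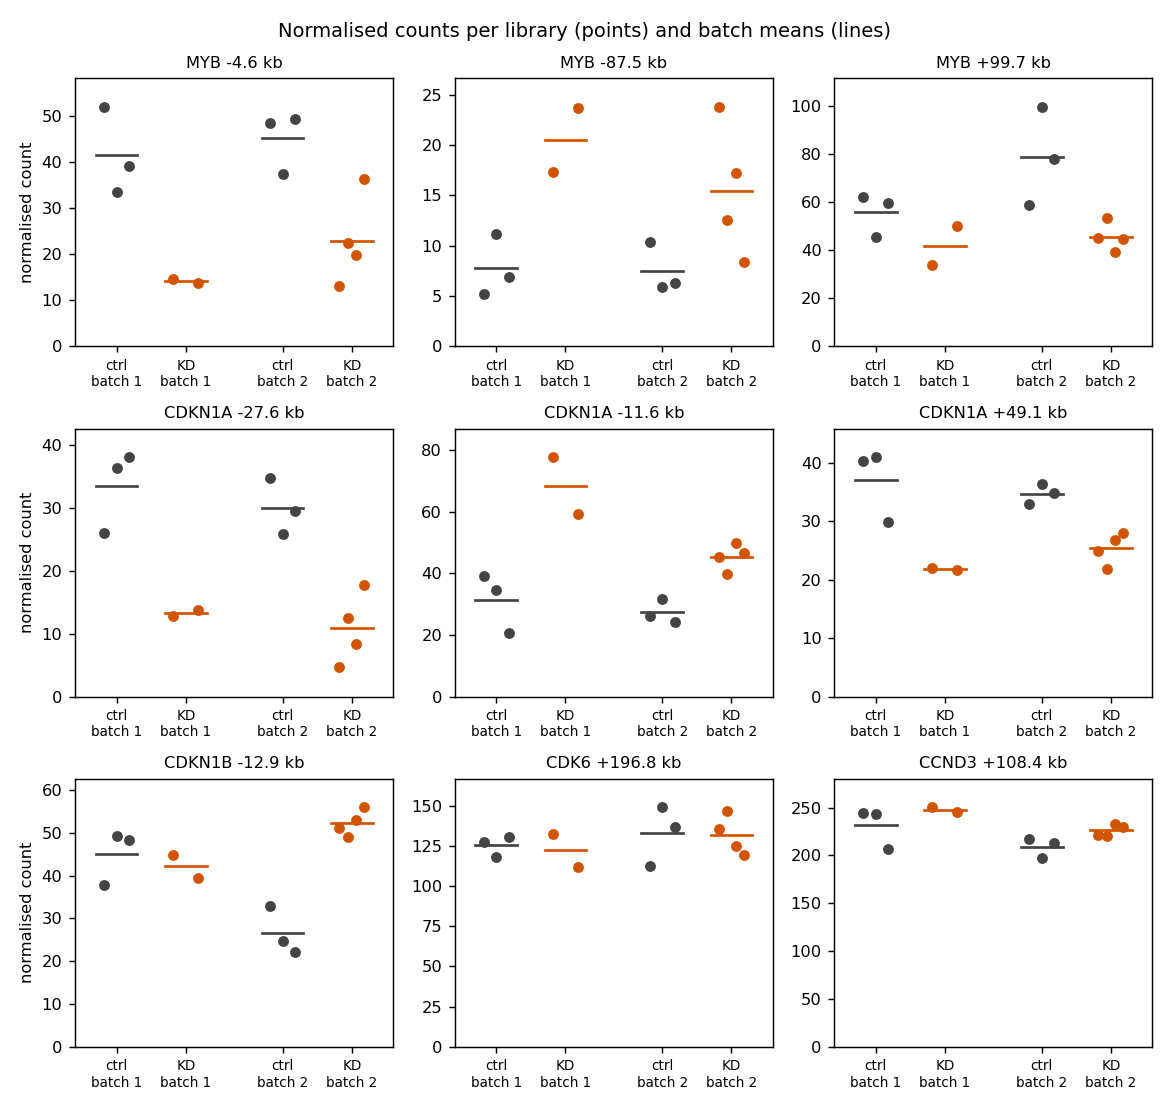
Normalised counts of each library (points) and the mean of each group within each batch (lines) at 9 peaks, named by gene and distance in kb, with control in grey and knockdown in orange. At CDKN1A every knockdown library lies beyond every control library, and at CDKN1B the groups part in batch 2 and not in batch 1. The strongest CDK6 peak overlaps in both batches. At the strongest CCND3 peak each knockdown library lies above every control library of its own batch, narrowly in batch 1.

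Within batches fewer peaks passed the test. Batch 1 alone called 3 of the 43 peaks (1 gained, 2 lost), where it called 12% of all peaks (5.38% gained, 6.61% lost). Batch 2 alone called 8 (2 gained, 6 lost), where it called 25.8% of all peaks (12.8% gained, 13.1% lost). The peaks called in both were the MYB peak at -4.6 kb and the CDKN1A peaks at -27.6 and -11.6 kb. Of the 16 calls, 15 had the same sign in both batches, the exception being CDKN1B. After adjustment over all peaks none of the 43 differed between batches in the knockdown effect, and no peak of the series did, while 1 of the 43 and 669 of all peaks had an unadjusted p below 0.05.

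**Figure D5:**
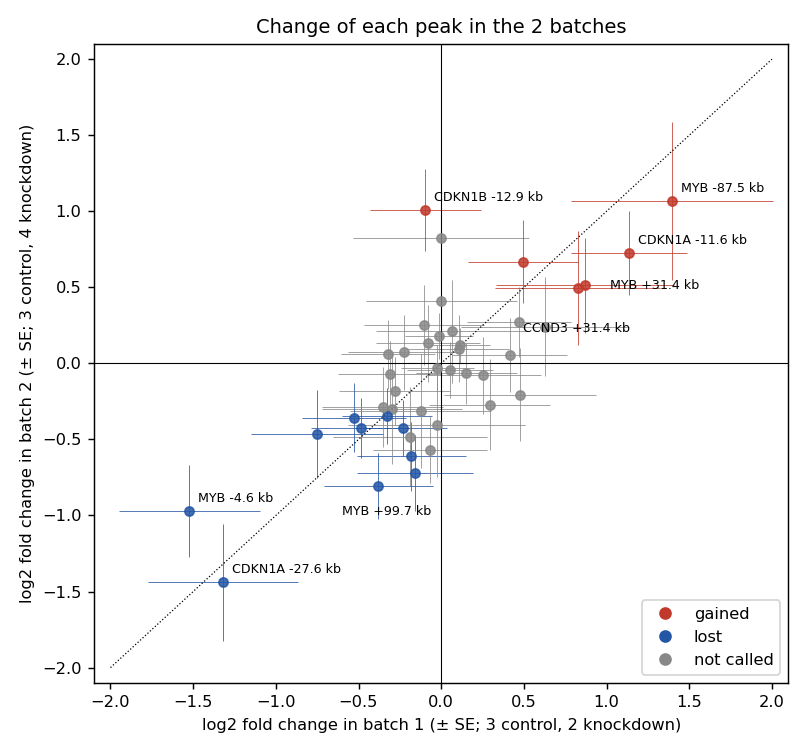
Log2 fold change in batch 1 (3 control and 2 knockdown libraries) against batch 2 (3 control and 4 knockdown libraries), each ± SE, for the 43 peaks, with the dotted line at equal values. The gained (red) and lost (blue) peaks lie on the same side of 0 in both batches in 15 of 16 cases, and the CDKN1B peak at -12.9 kb lies near 0 in batch 1 and at 1.01 in batch 2.

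Many of the 43 peaks sat on gene starts, their own or a neighbour's. A RefSeq start was covered by 15 of them (34.9%), where 19.8% of all peaks covered one. Of these 15, 4 were called (1 gained, 3 lost), and of the other 28, 12 (5 gained, 7 lost). Over all peaks 21.9% of those covering a start were called (3.74% gained, 18.1% lost) and 46.9% of the others (25.6% gained, 21.4% lost). Only 4 of the 43 peaks covered a start of the gene whose window they lay in, at CDK4, CDKN2C and CCND3, and none of these was called.

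The same pathway beyond these genes was read from a list of 42 further cell cycle genes, covering cyclins, kinases, E2F and retinoblastoma family members, inhibitors, replication licensing factors and MYB relatives. Of these, 38 had at least 1 peak within 50 kb, and 134 peaks in all, of which 45 were called (33.6%), 24 gained (17.9%) and 21 lost (15.7%), against 42.0% of all peaks called, 21.3% gained and 20.7% lost. Their median log2 fold change was -0.04. At 6 genes a called peak lay within 1 kb of an end of the gene, and all 6 were lost. They were 6 of 29 such peaks of the listed genes (20.7%), where 25.2% of the 6494 peaks within 1 kb of an end of any protein-coding gene were called, 19.0% lost and 6.19% gained. PLK1, a mitotic kinase, had the greatest loss, from 39.5 ± 13.7 to 26.5 ± 4.20 (-0.59 ± 0.21, adjusted p = 0.013). E2F1, the founding E2F factor, fell from 44.8 ± 8.51 to 29.8 ± 1.62 (-0.54 ± 0.18, adjusted p = 0.00996). FBXW7, which marks cyclin E for degradation, fell from 53.4 ± 10.5 to 37.0 ± 9.30 (-0.49 ± 0.18, adjusted p = 0.0166). CCNB1, the mitotic cyclin, RBL1, a relative of the retinoblastoma protein, and MYBL1, a relative of MYB, had log2 fold changes of -0.45, -0.39 and -0.36, with adjusted p of 0.024, 0.0194 and 0.0315. These 6 losses are not given without control replicate 1, which was often the highest control library at gene starts.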

How the data were processed

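RUNX1 ChIP-seq was measured in 12 libraries of THP-1 cells, 6 control and 6 knockdown, and the 8 IgG samples were not analysed here. As described in the study's methods, reads were aligned by the authors with bowtie2 and freed of duplicates, peaks were called with macs2 for each condition and batch, filtered for reproducibility and merged, and reads were counted with featureCounts. Versions were not given in the sources used here. The deposited values are raw counts per peak and library, with no normalization, and a width column held as other information. Peaks were called on the libraries compared.

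The methods name a mouse build and the labels a mouse and a human one, and the coordinates decided between them: 19.8% of peaks covered a RefSeq start of GRCh38.p14, against 1.39% to 1.86% after shifts of 10 kb to 1 Mb. Exons and the genome sequence were not used here, so no exon or intron is named and peaks were not searched for motifs.

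DESeq2 1.42.0 (R 4.3.3) was run on all 26642 peaks with batch and genotype, within each batch, and with their interaction, the tool and thresholds (adjusted p 0.05, fold change 1.1) being those of the study's methods. Alternatives were edgeR 4.0.16, other size factors, no batch term, a replicate block, at least 10 counts in every library, no independent filtering, centring on neighbours within 5 Mb, other thresholds and windows, and leaving out each library. The fits were tested on simulated data. No library was a duplicate of another (chi-square over degrees of freedom 1.29 to 2.24 within groups). At each gene the peak nearest the start, the strongest and the called peaks with the smallest adjusted p (at most 4, or 6 for MYB) were described in full, and of the other cell cycle genes those with a called peak within 1 kb of an end. The members and lists were chosen with earlier results of these data known.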

Additional observations from a re-analysis of the deposited data

Results flagged for a closer look

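In 2 of the 48 groups of 6 libraries examined at the peaks described in full, a library stood apart from the other 5 by Dixon's test, where chance gives about 2.4. Both were control replicate 1. At the lost AHI1 peak of the MYB window (chr6:135322869-135323721) it read 31.2 normalised counts, and the other control libraries 49.5 to 56.5. At the TIGAR start peak of the CCND2 window (chr12:4320568-4321644), which was not called, it read 53.3, and the others 17.9 to 27.0.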

How the results depend on the processing

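All 16 calls were also made by edgeR, with 1 further call at CDK6, and 15 were made without the batch term. Leaving out single libraries kept 7 calls in every fit and gave 9 to 15 calls, 3 to 6 gained and 5 to 10 lost, the lowest counts coming without knockdown replicate 5 (9 called, 5 lost) and without control replicate 5 (10 called, 3 gained), and 6 lost without control replicate 6. The median log2 fold change of the 43 peaks then ran from -0.051 to 0.00048. It was -0.068 with the replicate block, 0.040 with at least 10 counts in every library, 0.080 after centring on the neighbours and -0.065 with windows of 100 kb. Replicate numbers did not pair the libraries: same-numbered libraries had correlations of their deviations from -0.064 to 0.014, and number 3 lies in different batches in the 2 groups. With the replicate block 4 of the 16 calls remained (1 gained, 3 lost). With at least 10 counts in every library, 38 of the 43 peaks and 13 of the 16 calls were left in the test. Then 9 were called, 5 gained and 4 lost. Among the gains was the CDK6 peak at 194.3 kb, which was not one of the 16 calls. A fold change above 2 left 3 calls, 1 gained and 2 lost. The share of all peaks called is not given here for the replicate block, the count minimum or the 2-fold threshold. Whether these drops are particular to the 43 peaks cannot be read from the counts. Centring kept 10 of the 16 calls and added 2 gains, giving 12 calls, 7 gained and 5 lost. Windows of 25 kb, with that of MYB narrowed in proportion, held 32 peaks, 11 called (5 gained, 6 lost). Windows of 100 kb, with that of MYB widened in proportion, held 60 peaks, 22 called (9 gained, 13 lost).

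At the 42 other cell cycle genes, calls numbered 24, 27 and 14 with the replicate block, the count minimum and the 2-fold threshold, gains 13, 14 and 8, and losses 11, 13 and 6. In batch 1 alone edgeR called 5 peaks, 2 of them gained, and leaving out a library left 0 to 2 calls, 0 to 1 gained and 0 to 1 lost. In batch 2 alone edgeR called 13 peaks, 5 of them gained, and leaving out a library left 3 to 5 calls, 1 gained and 2 to 4 lost. No share over all peaks is given for these counts at the other genes or within batches. In the 150 bases nearest the start, 10.1% of all promoters held a RUNX core and 14.9% the PU.1 core, the search being shorter. Changes of sign fell on peaks or batches that were not called. The strongest CDK6 peak read 0.034 with the count minimum and 0.088 centred, and the CDKN2C peak 0.046 and 0.039. Without single libraries, CDK6 ran from -0.083 to 0.0094 over all libraries, from -0.13 to 0.10 in batch 1 and from -0.12 to 0.056 in batch 2, and CDKN2C from -0.13 to 0.11. In batch 1 the MYB peak at 2.5 kb ran from -0.61 to 0.017, the lost CDK6 peak from -0.37 to 0.019, CCND2 from -0.51 to 0.12, the gained CDKN1B peak from -0.22 to 0.0033 and the other from -0.54 to 0.32. Apart from the shorter search, the causes were not tested. With 4 reads at the lowest in a library, small changes at weak peaks were not detectable.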
